A study of Homo sapiens with 24 samples.

Results

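HGC27 is an established human cell line grown from a gastric carcinoma. RNA from parental HGC27 cells kept for 3 days in medium labelled LPDS was compared with RNA from parental cells kept for 3 days in medium labelled FBS. The labels do not spell out these names, which usually stand for lipoprotein-deficient serum and fetal bovine serum. Libraries were chosen by their labelled genotype and medium, which gave 6 of the 24 libraries of the series, 3 in LPDS and 3 in FBS. The labels give the genotype of these cells as parental and name no edit. A second line without a knockout, SGCTRL, carries a control guide and is labelled wild type, and its 3 LPDS and 3 FBS libraries are used where the response of parental cells is set against another line. The labels do not say whether SGCTRL is a pool or a clone. The lines SG12 and SG21, labelled as TMEM97 knockouts, entered the count filter, the scaling and the estimate of spread but neither comparison. Their TMEM97 levels are given once. All lines were grown in high glucose DMEM. The labels call the replicates independent but do not say at which step they were separated, so the p-values measure the spread between these libraries, which may be partly technical.

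Mammalian cells obtain cholesterol by taking up lipoproteins or by making it from acetyl-CoA. When sterol in the membrane of the endoplasmic reticulum is low, the membrane-bound factors SREBP-2 and SREBP-1, encoded by SREBF2 and SREBF1, are cut and move to the nucleus. There they raise genes of cholesterol synthesis, lipoprotein uptake and, mainly through SREBP-1, fatty acid synthesis. TMEM97 is known as the sigma-2 receptor and sits in intracellular membranes, where it interacts with NPC1, an exporter of cholesterol.

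The 3 LPDS libraries held 2.50, 4.08 and 3.62 M reads counted to gene entries, and the 3 FBS libraries 3.61, 3.40 and 2.40 M. Between 94.3% and 94.5% of the uniquely aligned reads of these 6 libraries fell on no gene, and most of the counted reads lay on the other strand than the gene whose name the entry carries. Each coding gene was therefore read under the entry that overlaps its exons on the other strand. That entry is named as "read under" where a gene's levels are given, and the value is in CPM, the count scaled by the total of counted reads in its library. Because an entry covers a limited stretch of its source gene, levels are not set against each other across genes, and reads from neighbours on the same strand may be mixed in. This covered 2686 coding genes above 6.86 CPM, the 90th percentile of 9464 coding entries that face no gene. Such entries hold reads on the named strand. They took 3.47% to 3.65% of the counts in the LPDS libraries and 3.79% to 4.56% in the FBS libraries, FBS replicate 2 having the highest share, and the 2 groups did not overlap in this share.

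The labelled cell type, epithelial, could be checked on few markers. E-cadherin (CDH1) had 8 reads over the 3 LPDS libraries and 10 over the 3 FBS libraries. The epithelial regulator GRHL2 had no read in either medium, which allows up to 0.294 CPM in LPDS and 0.319 CPM in FBS. The keratins KRT8 and KRT18 had at most 2 reads in LPDS and at most 6 in FBS, although the entries over these genes cover only parts of them. Of 17 epithelial markers 2 were tested, with a summed level of 11.4 to 12.1 CPM in LPDS and 11.4 to 21.7 CPM in FBS. The 6 mesenchymal markers that were tested summed to 25800 to 32700 CPM in LPDS and 24600 to 32000 CPM in FBS, nearly all of it VIM (vimentin, read under VIM-AS1). Because the entries cover different stretches of their genes, the epithelial and mesenchymal sums are not set against each other. VIM itself did not pass between media (log2 fold change 0.09 ± 0.11, SE, adjusted p = 0.72). Of 13 gastric markers only GATA6, a transcription factor of foregut epithelium read under ENSG00000266283, was tested, with 69.8 to 77.4 CPM in LPDS and 67.1 to 90.4 CPM in FBS. Leukocyte and endothelial markers could hardly be checked, since 1 of 7 leukocyte markers and 0 of 5 endothelial markers had an entry over it; that 1, LYZ (lysozyme), had 4 reads over the LPDS libraries and 4 over the FBS libraries and was not tested.

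In parental cells, 599 of 12822 tested entries (4.67%) differed between LPDS and FBS at an adjusted p under 0.05 (edgeR quasi-likelihood test, Benjamini-Hochberg adjustment), and 2512 had an unadjusted p under 0.05. Read by source gene, 88 of 2686 genes (3.28%) were higher in LPDS and 39 (1.45%) were lower. Changes were mostly small, with 25 of these 127 genes moving by more than 1 on the log2 scale. The median log2 fold change of all genes read was 0.03. These counts rest partly on single libraries. Without FBS replicate 2 the test called 36 genes higher and 11 lower, without LPDS replicate 3 it called 37 and 9, and without LPDS replicate 1 it called 59 and 21. With the share of reads on the named strand as a covariate, 19 were higher and 11 lower, and with DESeq2 size factors 77 were higher and 61 lower. The libraries of the 2 media did not overlap in 121 of the 127 passing genes, beside 603 of all 2686 (22.4%).

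Among genes of lipid metabolism 14 were higher in LPDS and none was lower. Of 153 genes in 6 lists, covering cholesterol synthesis, sterol uptake and control, fatty acid synthesis, phospholipid and glycerolipid synthesis and lipid droplets, 41 could be read. Of these, 34.1% were higher, against 3.28% of all genes, 0 were lower and 27 did not pass. Their median log2 fold change was 0.24, against 0.03 for all genes read, and 32 of 41 had a positive value, while 1215 of all 2686 genes had a negative one. The 14 that passed ranged from 0.41 to 1.26, and in each of them the LPDS libraries lay above the FBS libraries. The count was 9 without FBS replicate 2, 10 without LPDS replicate 3 and 5 with the named-strand share as a covariate.

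**Figure D1:**
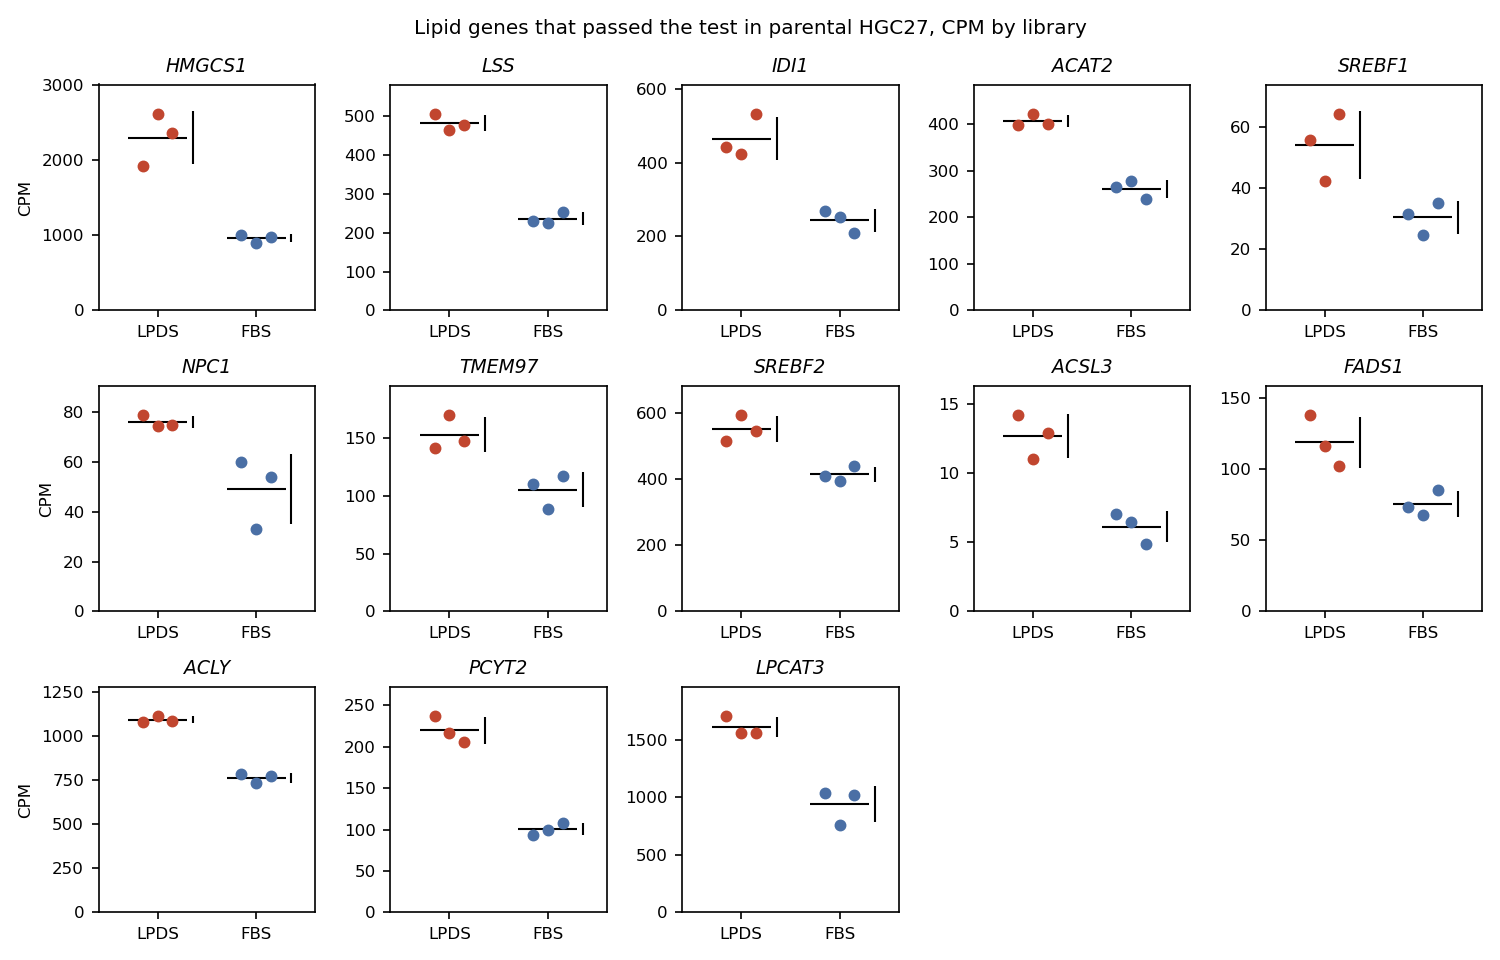
CPM of 13 of the 14 lipid genes that passed the test in parental HGC27 cells, LPDS on the left and FBS on the right of each panel, each axis starting at 0. Points are libraries, the horizontal line is the mean of 3 libraries and the vertical line its SD; in every panel the 3 LPDS points lie above the 3 FBS points.

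The 250 bases before the start of these genes were searched because the genes moved together. The search used the letters of a classical sterol response element, TCACNCCAC, and of the CCAAT and GGGCGG boxes, which bind the known SREBP partners NF-Y and Sp1. Promoters of 12 of the 14 genes that passed were matched by symbol in RefSeq (GRCh38.p14), taking the first start listed for each symbol. On either strand, CCAAT stood in 8 of the 12 (66.7%), against 4 of 18 lipid genes that did not pass (22.2%), 35.2% of 2195 matched genes read and 32% of all 35116 RefSeq promoters. GGGCGG stood in 12 of 12, against 11 of 18 lipid genes that did not pass (61.1%), 76.7% of genes lower in LPDS, 68.7% of the genes read and 42.6% of all promoters. TCACNCCAC stood in 1 of 12, SREBF2, and in 1 of 18 lipid genes that did not pass, MID1IP1, against 3.33% of genes lower in LPDS, 0.911% of the genes read and 0.883% of all promoters. Matches may overlap each other, and a match is a description of the letters in this window. The stretches of 6 genes are shown because they are a key pair of cholesterol enzymes, the regulator, the gene that the series is about and the phospholipid genes that rose, 5′ to 3′ on the strand of the gene. Each runs from 250 bases before the RefSeq start up to the first base of the GENCODE gene, and capitals mark CCAAT (read on the other strand where they run ATTGG) and TCACNCCAC. The stretches lie at chr5:43313513-43313662 (minus strand), chr21:46228825-46229024 (minus), chr22:41832855-41833078 (plus), chr17:28318950-28319094 (plus), chr17:81911465-81911649 (minus) and chr12:7018511-7018726 (minus).
HMGCS1: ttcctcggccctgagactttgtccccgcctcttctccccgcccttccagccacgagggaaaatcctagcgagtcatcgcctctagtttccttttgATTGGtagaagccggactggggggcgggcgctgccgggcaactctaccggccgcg
LSS: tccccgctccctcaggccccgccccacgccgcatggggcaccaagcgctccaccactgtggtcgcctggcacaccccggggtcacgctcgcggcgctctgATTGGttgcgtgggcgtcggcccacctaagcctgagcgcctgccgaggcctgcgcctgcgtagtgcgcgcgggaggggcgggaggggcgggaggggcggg
SREBF2: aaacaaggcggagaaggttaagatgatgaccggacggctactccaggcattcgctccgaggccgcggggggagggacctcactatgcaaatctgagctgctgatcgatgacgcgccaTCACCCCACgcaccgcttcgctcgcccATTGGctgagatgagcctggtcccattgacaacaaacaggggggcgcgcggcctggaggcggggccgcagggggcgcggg
TMEM97: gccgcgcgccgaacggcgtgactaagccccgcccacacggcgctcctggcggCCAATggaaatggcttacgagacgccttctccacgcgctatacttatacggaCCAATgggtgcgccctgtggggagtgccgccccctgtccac
PCYT2: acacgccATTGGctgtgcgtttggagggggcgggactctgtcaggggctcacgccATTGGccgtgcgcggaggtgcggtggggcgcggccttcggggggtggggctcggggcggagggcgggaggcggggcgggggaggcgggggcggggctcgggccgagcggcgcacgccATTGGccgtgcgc
LPCAT3: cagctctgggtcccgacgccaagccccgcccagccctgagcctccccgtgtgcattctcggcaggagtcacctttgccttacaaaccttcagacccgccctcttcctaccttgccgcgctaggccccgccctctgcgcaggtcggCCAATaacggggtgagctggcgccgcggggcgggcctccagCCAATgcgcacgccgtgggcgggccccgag
Each of these stretches shows at least 1 CCAAT, PCYT2 shows 3, and TCACNCCAC stands only in that of SREBF2 among the 6. They were chosen after their letters were seen, and the windows of IDI1 and SREBF1, which also passed, hold no CCAAT. The IDI1 window, chr10:1056705-1056954 (minus strand), does not adjoin the GENCODE gene that was read, which spans 1039152 to 1049170. It may therefore not be the promoter in use.

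In cholesterol synthesis, 4 of the 6 genes that could be read were higher in LPDS. HMGCS1, the cytosolic HMG-CoA synthase at the entry of the mevalonate pathway, lies on chromosome 5 (43289395 to 43313512, hg38, minus strand). It was read under ENSG00000261604, an antisense entry that overlaps its exons by 703 bases. HMGCS1 had 1920, 2617 and 2368 CPM in the LPDS libraries, against 1004, 902 and 979 CPM in the FBS libraries. The lowest LPDS library lay far above the highest FBS library. Its log2 fold change was 1.26 ± 0.10 (SE, adjusted p = 6.7e-11). LSS, which closes squalene epoxide into lanosterol, was read under ENSG00000223901 and had 505, 463 and 476 CPM in LPDS, against 230, 224 and 254 CPM in FBS. The LSS groups were as clearly apart, with a log2 fold change of 1.03 ± 0.10 (adjusted p = 4.2e-09). IDI1, the isopentenyl diphosphate isomerase, was read under IDI2-AS1 and averaged 465 ± 58.3 CPM in LPDS and 244 ± 31.7 CPM in FBS (SD, n = 3 each). Its log2 fold change was 0.93 ± 0.17 (adjusted p = 0.00083), and the call was lost with the named-strand covariate.

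ACAT2, the cytosolic acetyl-CoA acetyltransferase that starts the pathway, was read under TCP1, a coding gene whose exons overlap it by 397 bases. ACAT2 had 398, 422 and 402 CPM in LPDS, against 266, 278 and 240 CPM in FBS, with no overlap (0.64 ± 0.10, adjusted p = 0.00014). FDFT1, the squalene synthase, was read under ENSG00000255046. It had a mean of 24.3 ± 2.74 CPM in LPDS and 27.9 ± 8.46 CPM in FBS and did not pass (adjusted p = 0.67). The calls of HMGCS1, LSS and ACAT2 were kept under every one of the 15 alternatives run.

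Among genes of sterol uptake and control, 5 of 11 were higher in LPDS and none was lower. TMEM97, read under IFT20, had 142, 169.9 and 147 CPM in LPDS, against 110.4, 88.5 and 117 CPM in FBS. The TMEM97 groups did not overlap, FBS replicate 2 being the lowest library (0.54 ± 0.12, adjusted p = 0.0062). NPC1, the lysosomal cholesterol exporter, was read under RMC1 and averaged 76.0 ± 2.40 CPM in LPDS and 49.0 ± 14.1 CPM in FBS (0.63 ± 0.17, adjusted p = 0.024).

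Both SREBP genes were higher in LPDS. SREBF1 was read under the coding entry RAI1 and had 56.0, 42.4 and 64.4 CPM in LPDS, against 31.5, 24.6 and 35.3 CPM in FBS. The share of this count that RAI1 itself was estimated to supply was 0.188. The lowest LPDS library of SREBF1 lay above its highest FBS library (0.84 ± 0.19, adjusted p = 0.0071). SREBF2, read under SREBF2-AS1, had 516, 595 and 545 CPM in LPDS, against 410.5, 395 and 440.3 CPM in FBS. These groups were apart by less in proportion (0.41 ± 0.11, adjusted p = 0.023). The calls of TMEM97, NPC1, SREBF1 and SREBF2 were lost without FBS replicate 2, with the named-strand covariate and with the spread of the compared groups alone. With that spread, 1 of the 11 genes was called. All of these calls but that of TMEM97 were also lost without LPDS replicate 3. The NPC1 call was also lost without LPDS replicate 1, and the SREBF2 call without LPDS replicate 2. The other 6 genes read did not pass. They include the lipoprotein receptors VLDLR, LRP1 and LRP8, the ER protein ERLIN2, which acts in sterol-regulated degradation of HMG-CoA reductase, and the cholesterol transfer protein GRAMD1A. The log2 fold changes of these 5 lay between -0.13 (VLDLR) and 0.13 (GRAMD1A).

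In fatty acid synthesis, 3 of 7 genes read were higher in LPDS. ACLY, the ATP citrate lyase that supplies cytosolic acetyl-CoA, was read under ENSG00000274630 and had 1077, 1114 and 1088 CPM in LPDS, against 784, 731 and 774 CPM in FBS. The libraries of each medium were close to each other and the groups did not overlap (0.52 ± 0.09, adjusted p = 0.00064). With the named-strand covariate the ACLY value was 0.34 (adjusted p = 0.23), and 0 of the 7 genes were called. FADS1, the delta-5 desaturase of polyunsaturated fatty acids, was read under FADS2 on the other strand and had 138, 116 and 102.5 CPM in LPDS, against 73.2, 67.4 and 85.6 CPM in FBS. It passed with no overlap (0.66 ± 0.15, adjusted p = 0.0066). FADS2, the delta-6 desaturase, was read under FADS1 through the same 490 bases and averaged 45.9 ± 5.77 CPM in LPDS and 44.3 ± 2.16 CPM in FBS. FADS2 did not pass (0.05 ± 0.17, adjusted p = 0.90).

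ACSL3, an acyl-CoA synthetase of the lipid droplet surface read under ACSL3-AS1, stood low, at 12.7 ± 1.602 CPM in LPDS and 6.12 ± 1.12 CPM in FBS. It passed narrowly (1.02 ± 0.30, adjusted p = 0.043) and lost the call under 9 of 15 alternatives, among them without LPDS replicate 1, LPDS replicate 3, FBS replicate 2 or FBS replicate 3. The FADS1 call was lost without LPDS replicate 1 or FBS replicate 2. MID1IP1, a partner of acetyl-CoA carboxylase read under MID1IP1-AS1, had a log2 fold change of 0.45 ± 0.16 and did not pass (adjusted p = 0.10). HSD17B12 and ACSL5 did not pass either.

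In phospholipid and glycerolipid synthesis, 2 of 15 genes read were higher in LPDS and none was lower. PCYT2, the enzyme that forms CDP-ethanolamine and controls phosphatidylethanolamine synthesis, lies on chromosome 17 (81900965 to 81911464, minus strand) and was read under NPB through 1941 bases. PCYT2 had 237, 216 and 206 CPM in LPDS, against 93.8, 99.9 and 108 CPM in FBS. The lowest LPDS library lay far above the highest FBS library (1.13 ± 0.14, adjusted p = 5.8e-07). LPCAT3, which places polyunsaturated chains into lysophospholipids, lies on chromosome 12 (6976186 to 7018510, minus strand) and was read under EMG1 through 3100 bases. LPCAT3 had 1709, 1560 and 1562 CPM in LPDS, against 1042, 762.5 and 1023 CPM in FBS, again apart (0.77 ± 0.09, adjusted p = 8.6e-07). Both calls were kept under every alternative run.

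The corresponding enzyme of the choline branch, PCYT1A, was read under SLC51A and had 132 ± 4.39 CPM in LPDS and 112 ± 6.54 CPM in FBS, and the choline kinase CHKA, read under ENSG00000255031, had 158 ± 9.97 CPM in LPDS and 128 ± 20.4 CPM in FBS. Neither passed (adjusted p = 0.25 for PCYT1A and 0.13 for CHKA), although the groups of both did not overlap. In SGCTRL cells CHKA passed as higher (0.55 ± 0.12, adjusted p = 0.0055) and PCYT1A did not pass (0.30 ± 0.12, adjusted p = 0.20). The remaining 11 genes of the list, which include the ceramide synthases CERS2 and CERS6, the lipins LPIN2 and LPIN3 and DGAT2, did not pass, with log2 fold changes of -0.32 (ETNK2) to 0.34 (DGAT2). The lipid droplet genes BSCL2 and PLIN3 did not pass. Of the 11 genes in a separate list of LXR targets, 0 passed the filters, so that list could not be read. Genes placed in the other lists were not sorted by their response to LXR.

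**Figure D2:**
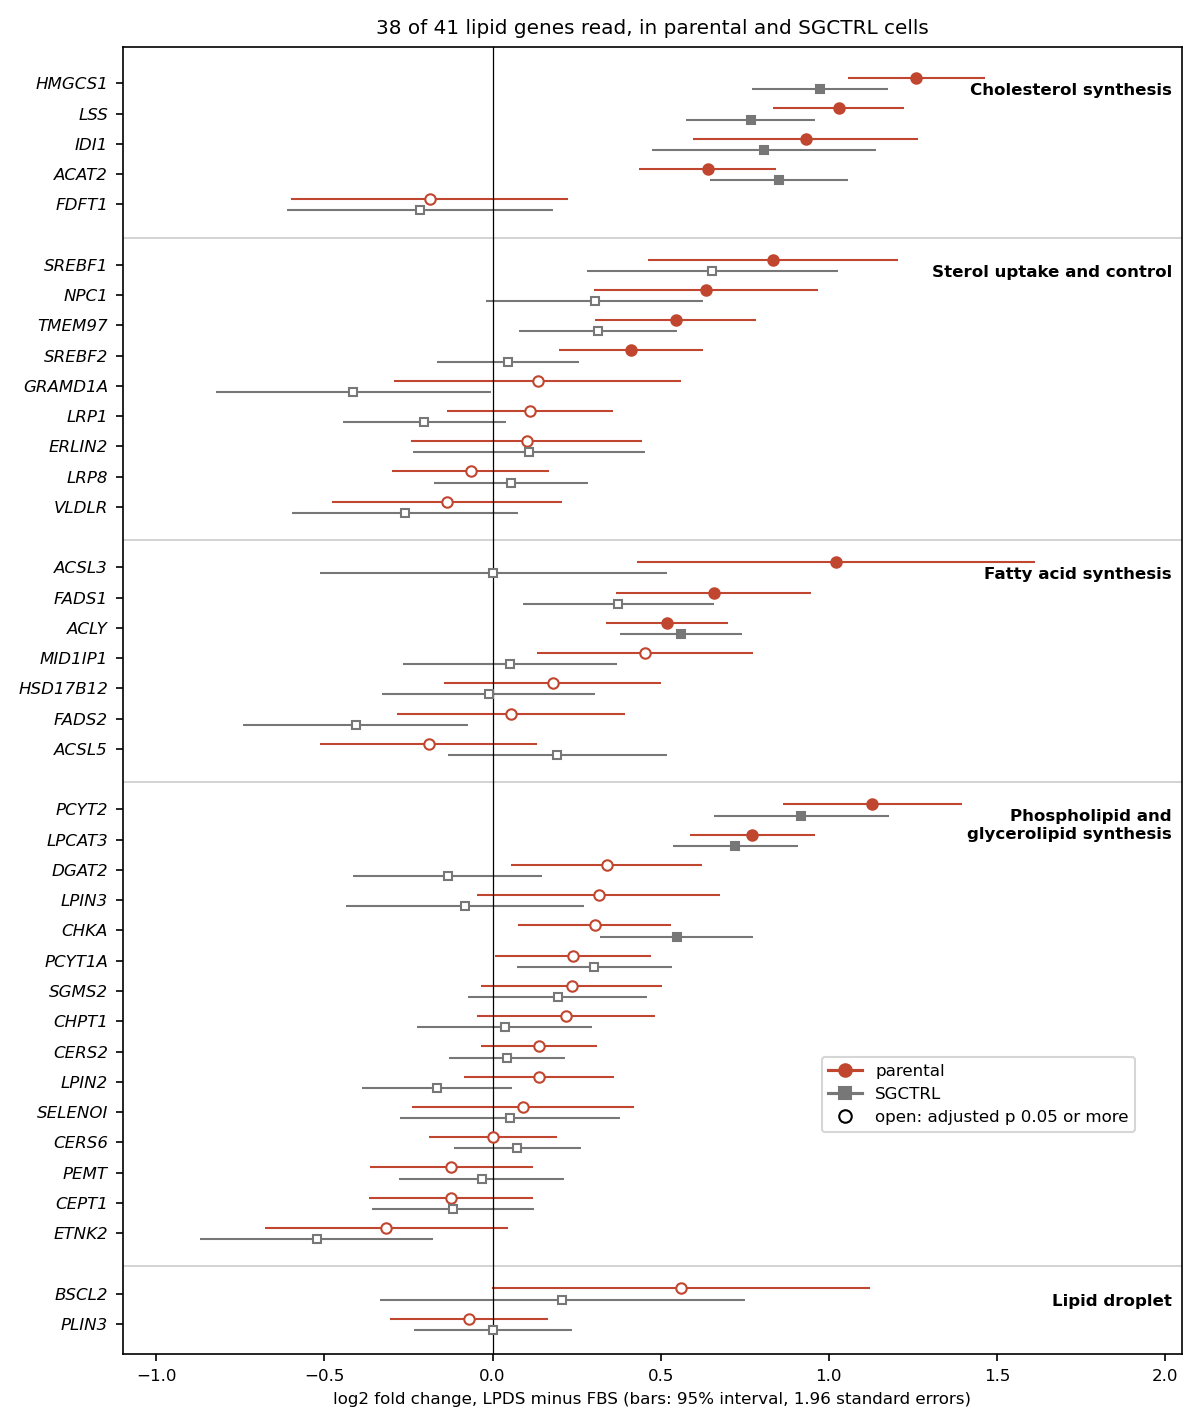
Log2 fold change of LPDS minus FBS for 38 of the 41 lipid genes read, in parental cells (red circles) and SGCTRL cells (grey squares), with approximate 95% intervals from the standard errors; filled symbols passed at an adjusted p under 0.05. HMGCS1 (1.26 in parental, 0.97 in SGCTRL) and PCYT2 (1.13 in parental, 0.92 in SGCTRL) stand farthest right among genes that passed in both lines.

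The immediate early genes, which serum and growth factors switch on within minutes, were higher in LPDS in 4 of 4 cases that could be read. Of all genes read, 3.28% were higher. IER2 was read under ENSG00000267598 and had 2272, 1956 and 2142 CPM in LPDS, against 995, 1549 and 1125 CPM in FBS. Its groups did not overlap (0.80 ± 0.12, adjusted p = 6.9e-05). NR4A1, an orphan nuclear receptor, was read under NR4A1AS and had 261, 216 and 314 CPM in LPDS, against 139.9, 148 and 183 CPM in FBS (0.75 ± 0.135, adjusted p = 0.00064). EGR3, a zinc finger factor read under ENSG00000253125, was low and spread, with 14.2, 19.3 and 30.2 CPM in LPDS, against 3.10, 3.81 and 11.4 CPM in FBS. EGR3 passed (1.89 ± 0.37, adjusted p = 0.0019), its highest FBS library lying just under its lowest LPDS library. JUNB, a subunit of the AP-1 factor read under HOOK2, averaged 725 ± 28.96 CPM in LPDS and 514 ± 32.6 CPM in FBS (0.50 ± 0.14, adjusted p = 0.040). The JUNB call was lost under 10 of 15 alternatives, each of the 6 left-out libraries included. With the named-strand covariate the NR4A1 call was lost too (adjusted p = 0.067), which left 2 of the 4 genes called.

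Of 12 genes of the amino acid stress response, 3 were higher in LPDS and none was lower, against 3.28% higher and 1.45% lower of all genes. A positive log2 fold change stood in 11 of the 12 (median 0.36, against 0.03 for all genes read, of which 1215 of 2686 were negative). SLC7A11, the cystine importer that feeds glutathione synthesis, was read under SLC7A11-AS1 and had 268, 369 and 358 CPM in LPDS, against 225, 181 and 196 CPM in FBS. Its groups were apart, LPDS replicate 1 coming nearest to FBS (0.73 ± 0.11, adjusted p = 5.7e-05). SLC6A9, a glycine transporter read under CCDC24, had 79.98, 78.6 and 95.4 CPM in LPDS, against 52.9, 40.4 and 48.7 CPM in FBS (0.84 ± 0.14, adjusted p = 0.00035). VEGFA, the angiogenic growth factor that stands in this list and in the hypoxia list, was read under ENSG00000272114 and averaged 573 ± 20.5 CPM in LPDS and 415 ± 35.1 CPM in FBS (0.47 ± 0.10, adjusted p = 0.0034), a call lost with the named-strand covariate (adjusted p = 0.11). Genes such as ATF5, CEBPB, MTHFD2, SHMT2 and SLC7A5 did not pass. Among 8 genes of tRNA charging, WARS1, read under ENSG00000258666, rose (492 ± 3.81 CPM in LPDS, 370 ± 37.3 CPM in FBS, adjusted p = 0.012). The WARS1 call was lost without FBS replicate 2 or LPDS replicate 3, with the named-strand covariate and with the spread of the compared groups alone.

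Among 9 hypoxia genes read, ANKRD37, MXI1 and LOXL2 were lower in LPDS, VEGFA was higher, and the list's median was -0.35. Of all genes read, 1.45% were lower and 3.28% higher. ANKRD37, a target of the hypoxia factor HIF-1, was read under UFSP2 through 909 bases and had 39.4, 36.2 and 35.9 CPM in LPDS, against 73.5, 75.3 and 63.7 CPM in FBS. The highest LPDS library lay well under the lowest FBS library (log2 fold change -0.94 ± 0.15, adjusted p = 9.5e-05), and the call was kept under every alternative run. LOXL2, a lysyl oxidase that cross-links collagen, was read under LOXL2-AS1 and had 223, 209.8 and 238.5 CPM in LPDS, against 290.3, 352 and 309 CPM in FBS (-0.50 ± 0.12, adjusted p = 0.0086). MXI1, a MYC antagonist read under ENSG00000228417, averaged 40.1 ± 5.47 CPM in LPDS and 59.6 ± 9.05 CPM in FBS (-0.58 ± 0.17, adjusted p = 0.044). The calls of LOXL2 and MXI1 were lost without FBS replicate 2 and with the named-strand covariate. That of MXI1 was also lost without each LPDS library in turn and with the spread of the compared groups alone. The others, ERO1A, HIF1A, LOX, P4HA2 and PDK1, did not pass.

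Genes of mitochondrial energy metabolism are read against the 3.28% of all genes that were higher in LPDS and the 1.45% that were lower. Of 13 genes of the respiratory chain, NDUFB8, a complex I subunit read under HIF1AN, was lower at 428 ± 32.3 CPM in LPDS and 577 ± 84.0 CPM in FBS (-0.43 ± 0.13, adjusted p = 0.043). The call was lost without FBS replicate 2, without each LPDS library in turn, with the named-strand covariate and with the spread of the compared groups alone. None of 13 genes of the TCA cycle, 5 of fatty acid oxidation or 4 of mitochondrial dynamics passed. Among 5 glycolytic genes, GAPDH, read under ENSG00000269968, had 41090, 35960 and 34670 CPM in LPDS, against 48540, 40400 and 46300 CPM in FBS. The GAPDH groups overlapped slightly and it passed (-0.28 ± 0.08, adjusted p = 0.033). That call was lost without LPDS replicate 2 or 3, without FBS replicate 1 or 3 and with the spread of the compared groups alone.

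Autophagy genes had 2 rises among 9 read, and 3.28% of all genes read were higher. WIPI1, which binds the membrane of forming autophagosomes, was read under ARSG and had 106, 124 and 96.5 CPM in LPDS, against 71.0, 66.2 and 69.0 CPM in FBS (0.67 ± 0.13, adjusted p = 0.0022), a call lost with the named-strand covariate (adjusted p = 0.26). GABARAPL1, an ATG8-family protein read under GABARAPL1-AS1, was low, with 20.4 ± 1.77 CPM in LPDS and 7.80 ± 2.86 CPM in FBS (1.38 ± 0.30, adjusted p = 0.0045), and lost the call without FBS replicate 2 or with that covariate. The mesenchymal genes CD44, a hyaluronan receptor read under CD44-AS1 (286 ± 17.96 CPM in LPDS, 211 ± 44.6 CPM in FBS), and ZEB2, a repressor of E-cadherin read under ZEB2-AS1 (56.9 ± 12.6 CPM in LPDS, 35.2 ± 10.8 CPM in FBS), passed as higher (adjusted p = 0.040 and 0.033). The ZEB2 groups overlapped. Both calls were lost without FBS replicate 2, LPDS replicate 1 or LPDS replicate 3, and that of ZEB2 also without FBS replicate 1. Both were also lost with the named-strand covariate and with the spread of the compared groups alone. Of 14 ribosomal protein genes, RPS6 passed as higher (adjusted p = 0.036). The RPS6 call was lost under 8 of 15 alternatives, among them the named-strand covariate and leaving out FBS replicate 2 or 3 or LPDS replicate 2 or 3.

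None of the 9 genes of DNA replication and 3 of mitosis that were read had a positive log2 fold change. Of all 2686 genes read, 1215 had a negative one and 1.45% passed as lower. In these lists only RFC5, a subunit of the clamp loader read under ENSG00000277873, passed as lower, at 57.3 ± 7.11 CPM in LPDS and 82.6 ± 5.77 CPM in FBS (-0.52 ± 0.14, adjusted p = 0.028). The RFC5 call was lost without FBS replicate 1 or 2 or without LPDS replicate 1 or 3. It was also lost with the named-strand covariate and with the spread of the compared groups alone. List medians were -0.21 for DNA replication and -0.36 for mitosis, where CCNA2, KIF20A and PLK1 did not pass. PDIA6, a protein disulfide isomerase of the endoplasmic reticulum, was the member of 5 read ER chaperone genes that passed, as lower (-0.28 ± 0.08, adjusted p = 0.037). That call was lost without FBS replicate 1 or 2 or LPDS replicate 1 or 3, and with the spread of the compared groups alone.

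**Figure D3:**
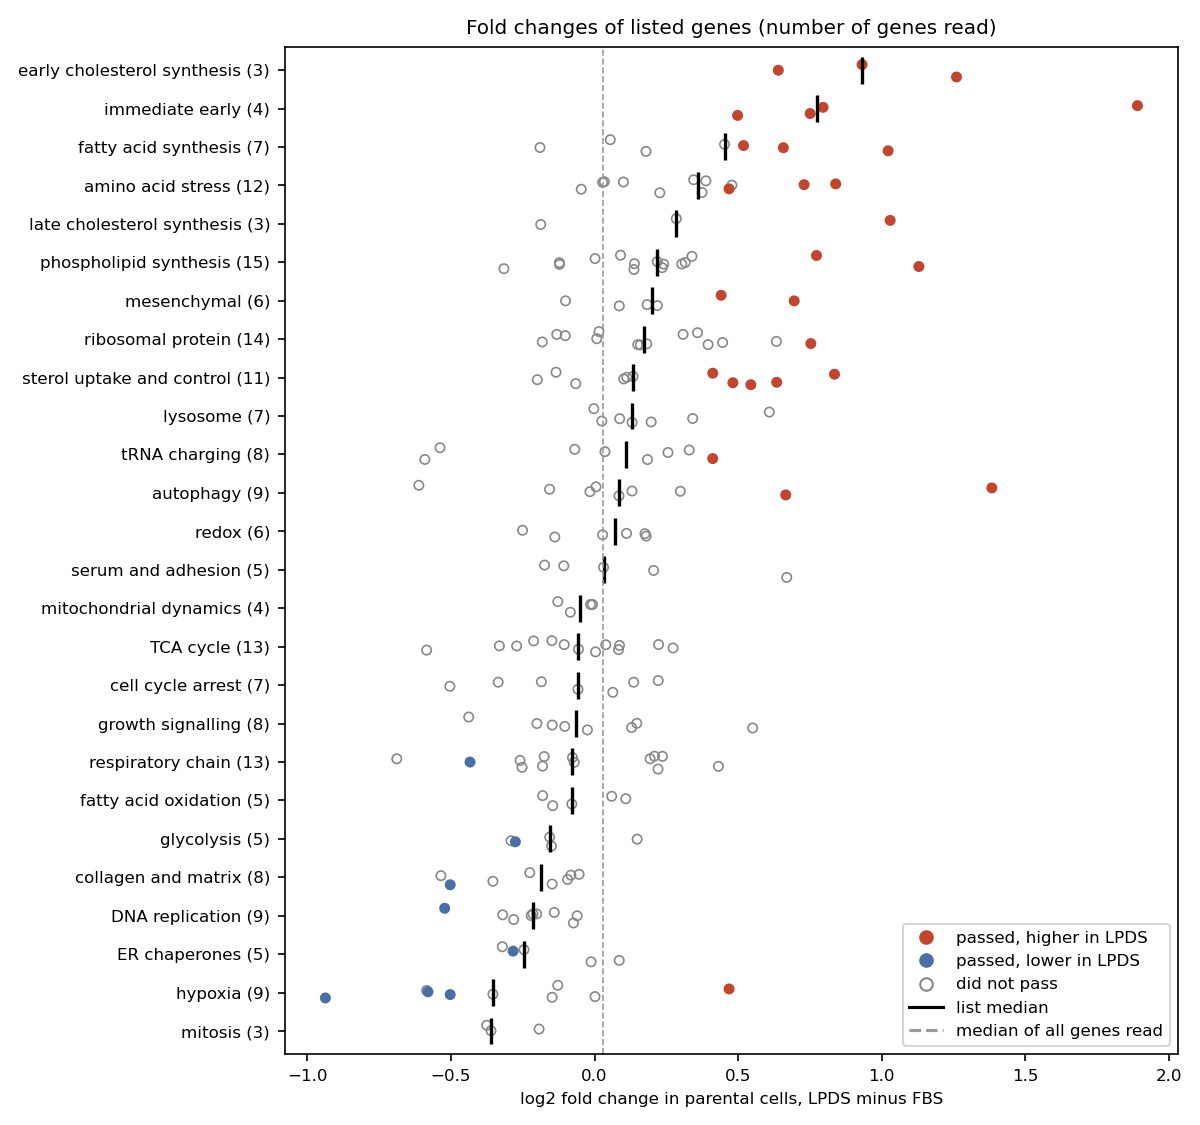
Log2 fold change of LPDS minus FBS in parental cells for every gene read of each list with at least 3 genes read, lists ordered by their median. Red points passed as higher, blue points as lower and open points did not pass; black bars are list medians and the dashed line is the median of all genes read, 0.03.

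Outside the lists, genes were named by size above 56.0 CPM, the 99th percentile of coding entries that face no gene. LBHD1 had the largest rise among these, on chromosome 11 (62662817 to 62672255, minus strand), read under UQCC3 through 701 bases. LBHD1 had 280.1, 226 and 283 CPM in LPDS, against 52.9, 34.9 and 50.7 CPM in FBS. No library of one medium came near the other (2.51 ± 0.15, adjusted p = 1.4e-14). PRUNE2, read under PCA3, a transcript inside it on the other strand, had 306, 312 and 304 CPM in LPDS, against 98.3, 91.4 and 94.96 CPM in FBS. The PRUNE2 libraries of each medium lay close together (1.70 ± 0.11, adjusted p = 3.2e-13). RIMS4, a gene of the RIM family of presynaptic proteins read under KCNK15, had 531, 560.3 and 557 CPM in LPDS, against 309, 228 and 296 CPM in FBS (0.99 ± 0.13, adjusted p = 5.5e-06). All 3 calls were kept under every alternative run.

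The largest falls by the same rule were smaller than these rises, from -0.85 to -0.46 on the log2 scale. They include CLSPN, the claspin of the replication checkpoint, read under ENSG00000232335, at 51.6, 57.5 and 59.2 CPM in LPDS, against 102.5, 87.0 and 67.0 CPM in FBS (-0.61 ± 0.18, adjusted p = 0.038). ANLN, the cytokinesis protein anillin, was read under the coding entry MATCAP2 through 78 bases and had 353, 296 and 341 CPM in LPDS, against 439.8, 505 and 436 CPM in FBS (-0.48 ± 0.13, adjusted p = 0.026). In both genes the groups did not overlap, and each call was lost without FBS replicate 2 and without LPDS replicate 3. Both calls were also lost without LPDS replicate 2 and with the named-strand covariate. That of CLSPN was lost too without LPDS replicate 1 or FBS replicate 1 and with the spread of the compared groups alone.

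Other falls named by size include SLC29A4, CBY3, TRAPPC3, PEG10, POLR1G, ALKBH5 and ADRM1, beside RFC5 and LOXL2 above. The calls of the first 7 of these were lost without FBS replicate 2 and with the named-strand covariate. FBS replicate 2 was the highest of the 6 libraries in 29 of the 39 falls and the lowest in 62 of the 88 rises. These counts have no share over all genes beside them. In a call whose groups do not overlap, that extreme library is always an FBS library by construction. FBS replicate 2 also had the highest share of reads on the named strand, 4.56%. A coding entry, whose own reads may add to the count, was used for 23 of the 39 falls. The same held for 39 of the 88 rises and 1228 of all 2686 genes read. The share of the count that the entry's own gene was estimated to supply was 0.223 for SLC29A4 and at most 0.0146 (POLR1G) for the other 6 of these 7. With the named-strand share as a covariate, 11 falls were called, and the part of that share in the falls was not tested.

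**Figure D4:**
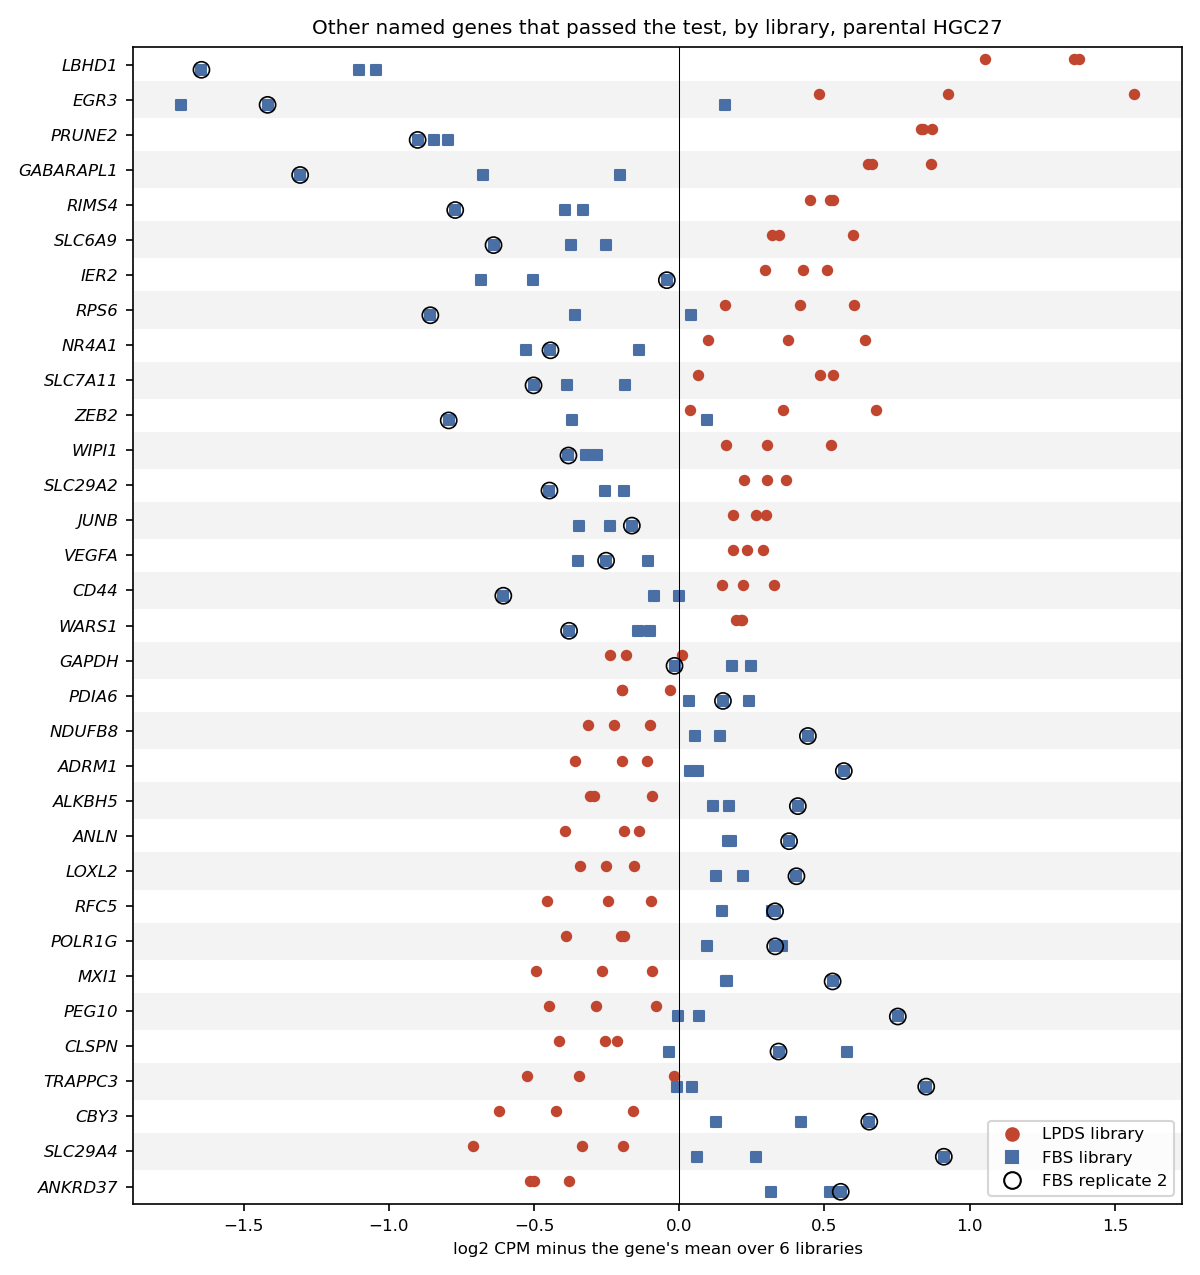
Log2 CPM of each library minus the gene's mean over the 6 parental libraries, for 33 named genes outside the lipid lists that passed; LPDS libraries are red circles and FBS libraries blue squares, and FBS replicate 2 is ringed. In LBHD1 and PRUNE2 the media are far apart, and in falls such as PEG10 and TRAPPC3 FBS replicate 2 stands away from the other FBS libraries.

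Coding entries that face no gene, which hold reads under the gene's own name, gave 30 higher (1.24%) and 124 lower (5.15%) of 2410 tested. Such reads are few, with a median of 0.32 CPM over all 9464 such entries. For genes read above 56.0 CPM under a non-coding entry, read density under the own name had a median of 0.216% of the other strand's. Whether counts under the own name follow the level of the gene's RNA was not tested. NIPSNAP3B had 15.8, 15.2 and 20.3 CPM in LPDS, against 1.41, 3.22 and 2.03 CPM in FBS (2.92 ± 0.44, adjusted p = 5.7e-05), and this call was kept under every alternative run. COQ10B, which binds coenzyme Q, had 11.8, 10.04 and 13.2 CPM in LPDS, against 3.66, 4.69 and 1.62 CPM in FBS (1.75 ± 0.36, adjusted p = 0.0030). The helicase subunit MCM4 had 2.84, 1.958 and 1.37 CPM in LPDS, against 10.7, 15.8 and 10.96 CPM in FBS (-2.63 ± 0.49, adjusted p = 0.00094). NDRG1, a stress-responsive gene, and UQCRC1, a complex III core subunit, were also lower (-2.37 ± 0.59 for NDRG1 and -2.25 ± 0.50 for UQCRC1). The share of all counts on such entries was lower in every LPDS library than in every FBS library, as given above, and its part in these falls was not tested gene by gene. The COQ10B, MCM4, NDRG1 and UQCRC1 calls were lost with that share as a covariate, those of NDRG1 and UQCRC1 also without LPDS replicate 3, and that of NDRG1 without FBS replicate 2.

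SGCTRL cells, which share no library with parental cells, gave 56 genes higher in LPDS (2.08%) and 42 lower (1.56%). Both lines called 22 genes as higher, which is 25% of the 88 parental rises and 39.3% of the 56 in SGCTRL. Both called 8 as lower, which is 20.5% of the parental and 19% of the SGCTRL falls, and none passed in opposite directions. Of the parental calls, 78 of 88 rises had a positive and 30 of 39 falls a negative log2 fold change in SGCTRL. These sign counts, and that of the lipid genes that follows, have no share over all genes read beside them. Among the 14 lipid genes, 14 had a positive value in SGCTRL and 7 passed there, namely HMGCS1, LSS, IDI1, ACAT2, ACLY, PCYT2 and LPCAT3. Of all 41 lipid genes read, 9 passed as higher in SGCTRL, CHKA among them. LBHD1 (2.42), PRUNE2 (1.49), ANKRD37 (-1.01), IER2 (0.97) and GAPDH (-0.45) also passed in SGCTRL, the values being log2 fold changes of that line. TMEM97 had 163.8, 173 and 150.3 CPM in SGCTRL in LPDS, against 139.9, 116 and 136 CPM in SGCTRL in FBS (log2 fold change 0.31, adjusted p = 0.19). TMEM97 spanned 49.7 to 213 CPM in the knockout lines SG12 and SG21 over both media, and since the labels do not give the edited site, counts over this overlap of 361 bases do not check the knockout.

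The difference between the responses, parental minus SGCTRL, passed for 7 of 12822 entries (0.0546%) and for 2 of 2686 genes read (0.0745%), while 1332 entries had an unadjusted p under 0.05. No lipid gene passed this test. The difference was 0.29 for HMGCS1 (95% interval 0.003 to 0.57, adjusted p = 0.49), 0.26 for LSS (-0.01 to 0.53, adjusted p = 0.51) and -0.21 for ACAT2 (-0.50 to 0.07, adjusted p = 0.64). SREBF2 was at 0.41 in parental and 0.05 in SGCTRL cells, a difference of 0.37 (0.06 to 0.67, adjusted p = 0.38). These intervals do not show that the lines respond alike.

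Among genes read, SLC29A2, an equilibrative nucleoside transporter read under B4GAT1-DT, passed the difference. It had 444, 469.5 and 491.5 CPM in parental LPDS, against 319, 279 and 334 CPM in parental FBS. In SGCTRL it had 570.4, 543.7 and 544.5 CPM in LPDS, against 572, 578 and 579.5 CPM in FBS. It was thus higher in LPDS in parental cells (0.59 ± 0.10) and did not pass in SGCTRL (-0.06 ± 0.09), a difference of 0.65 ± 0.14 (adjusted p = 0.045). The amino acid transporters SLC7A11 and SLC6A9 had values near 0 in SGCTRL (0.04 and 0.05), and their differences of 0.69 ± 0.15 and 0.79 ± 0.20 did not pass (adjusted p = 0.066 and 0.15). No difference passed when any SGCTRL library was left out.

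**Figure D5:**
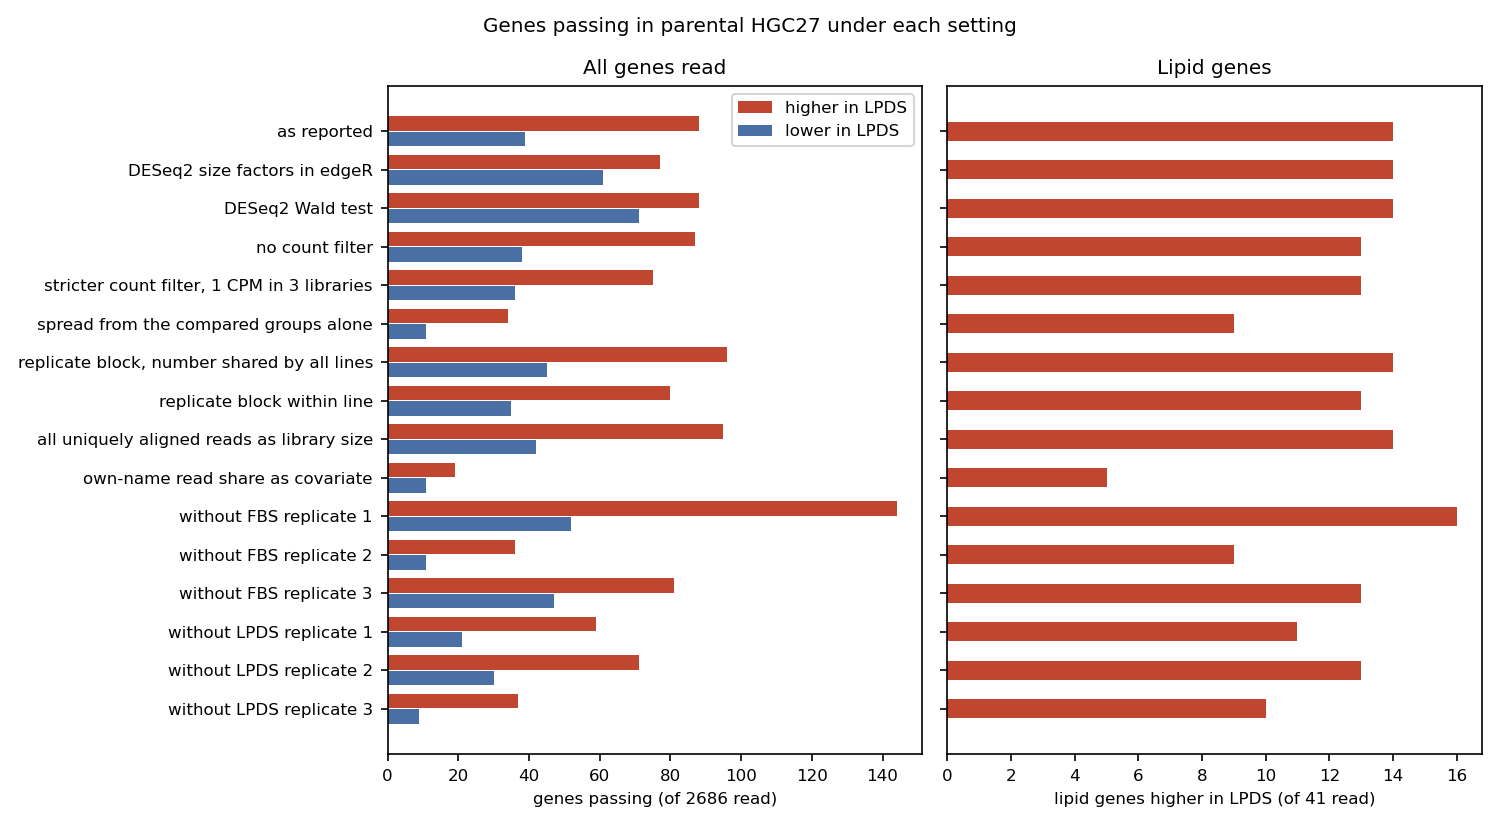
Number of genes passing in parental HGC27 as reported and under each of 15 alternatives, higher in LPDS (red) and lower in LPDS (blue) for all 2686 genes read on the left, and lipid genes higher in LPDS on the right; bars start at 0. The rises run from 19 with the named-strand share as a covariate to 144 without FBS replicate 1, and the lipid rises from 5 to 16 at the same settings.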

How the data were processed

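Total RNA (100 ng) was prepared with the Illumina Stranded Total RNA kit with ribosomal depletion, per the labels' protocols. The tools bcl2fastq and STAR and the build hg38 are named, per the submitters' processing notes. How reads were counted, on which strand and with which gene models is not given in the sources used here. The authors deposited raw read counts, 1 table per library with 61578 entries and 5 closing rows, which stayed out of library sizes and tests.

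Titles gave each library's line and medium. All 24 were fitted with a mean per group in edgeR 4.0.16 (R 4.3.3) with TMM scaling and filterByExpr, and the quasi-likelihood F test was run on the counts as deposited. A pass is an adjusted p under 0.05 (Benjamini-Hochberg over 12822 entries). Standard errors are back-calculated from the F statistic and approximate. Levels are given in CPM. The code was tested on simulated data.

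A source gene is the GENCODE 29 coding gene on the other strand with at least 50 bases and 80% of the exon overlap; 56752 entries were matched and 10143 had a source. Of 3409 tested coding source genes, those under the 90th percentile level were left out, and 85 whose entry's own gene was estimated to supply more than 50% of its reads were not used. Named genes are TMEM97, every lipid gene read, up to 4 passing members of each other list, and the largest rises and falls above the 99th percentile with groups not overlapping. SLC29A2 was named as a response difference. Sequences are from RefSeq (GRCh38.p14). The members, gene lists and rules were chosen with earlier results of these data known. Counting intervals and floors cover counting error only. Alternatives were another scaling (DESeq2 1.42.0 size factors), the DESeq2 Wald test, other count filters, the spread of the compared groups alone, replicate blocks, library sizes from all aligned reads, the named-strand share as covariate, and each library left out. Genes read under a coding entry number 1228. A few listed genes are counted in the totals but not reported here by name.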

Additional observations from a re-analysis of the deposited data

Results flagged for a closer look

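Differences in the LPDS response between parental and SGCTRL cells, tested as an interaction in the same edgeR fit, passed at an adjusted p under 0.05 for 7 entries. SLC29A2 (read under B4GAT1-DT) differed by 0.65 on the log2 scale (adjusted p = 0.045). CASTOR3P, over the cohesin gene STAG3, differed by 1.26: it did not pass in parental cells (0.31 ± 0.18, SE, adjusted p = 0.34) and was lower in LPDS in SGCTRL (-0.96 ± 0.17). STAG3 had 30.5, 31.3 and 28.5 CPM in parental LPDS, against 20.6, 27.8 and 24.8 CPM in parental FBS. In SGCTRL it had 23.2, 26.8 and 22.9 CPM in LPDS, against 46.0, 54.2 and 41.2 CPM in FBS.

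The other 5 entries had no single coding gene opposite. ARHGEF2-AS2 differed by 1.56 (2.00 in parental, 0.43 in SGCTRL), HSPB7 by 1.26 (0.95 in parental, -0.31 in SGCTRL) and ENSG00000287200 by 1.13 (1.42 in parental, 0.29 in SGCTRL). PTMA differed by -1.103 (-0.81 in parental, 0.30 in SGCTRL) and EEF1B2 by -3.54 (-1.30 in parental, 2.24 in SGCTRL, with 0.34 to 14.4 CPM over the 12 libraries). ARHGEF2-AS2 had 72.3, 55.8 and 94.6 CPM in parental LPDS, against 25.6, 14.4 and 15.02 CPM in parental FBS, while SGCTRL held 92.3, 114 and 115 CPM in LPDS, against 68.4, 93.7 and 76.2 CPM in FBS. The cause of these differences was not tested.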

How the results depend on the processing

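No call that passed changed sign. Among genes that did not pass, fold changes of FDFT1, CERS2, CERS6, HSD17B12, ERLIN2, LPIN2 and LRP1 changed sign with the covariate, that of CERS6 also with the DESeq2 scaling, and a few others without 1 library. The 599 entries passing became 235 with the spread of the compared groups alone and 71 with the named-strand share as a covariate, and ran from 152 to 895 with 1 library left out (152 without the third LPDS library, 158 without the second FBS library and 311 without the first LPDS library). Of the 152, 148 were among the 599, as were 61 of the 71. The 88 genes higher became 34 and 19, and ran from 36 to 144 without 1 library. The 99th percentile level filter left 1468 of the 2686 genes read, of which 47 were higher and 24 lower. The 39 lower became 11 with the groups' own spread, 11 with the covariate, 61 with DESeq2 size factors and 71 with the DESeq2 Wald test, and ran from 9 to 52. The 14 lipid rises became 9 with the groups' own spread and 5 with the covariate, and ran from 9 to 16. The 7 response differences became 0 with DESeq2 size factors, the groups' own spread, all aligned reads as library size or the covariate, 38 with the Wald test and 85 with no count filter, and ran from 0 (without FBS replicate 2, LPDS replicate 3 or any SGCTRL library) to 27 (without FBS replicate 1). The cause of these shifts was not tested.

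Same-numbered LPDS and FBS libraries of parental cells deviated from their group means with correlations of -0.13, 0.23 and 0.14, so the numbers were not taken to pair them. The replicate block gave 665 entries with numbers shared by all lines and 556 within line, 14 and 13 lipid rises, and 11 and 4 response differences. Of 54 named calls, 15 were kept under all 15 alternatives. Without FBS replicate 2, 29 were lost, without LPDS replicate 3 26, with the covariate 37 and with the groups' own spread 23. Among entries, 46.7% of calls were higher in LPDS, against 70.9% without FBS replicate 2 and 71.8% with the covariate. Between 2.40 and 4.08 M counted reads per library limit low genes such as ACSL3 and EGR3.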
